A study of Homo sapiens with 9 samples.

Results

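The human genome carries 5 genes that descend from piggyBac transposons, named PGBD1 to PGBD5, and their RNA levels were compared between HEK293T cells and 2 clones into which reporters had been inserted with a piggyBac vector. The 5 members were chosen by symbol, with earlier results of these data known, and matched to Ensembl gene identifiers. Of these, 4 had a row of their own among the 60683 genes of the count files (PGBD1, PGBD2, PGBD4 and PGBD5), and PGBD3, which lies inside ERCC6, had none. All 4 passed the filter on low counts in each comparison. HEK293T is a widely used cell line derived from human embryonic kidney and expressing SV40 T antigen. The parental line had received no reporter, per the labels, while clone 15 and clone 37 each descend from a single sorted cell and carry a pair of reporters, ATG-(CAG)60-Myc-NLuc with 60 CAG repeats before a NanoLuc luciferase, and a firefly luciferase counterpart without repeats, ATG-(CAG)0-Myc-FLuc. Clone 37 was picked for high and clone 15 for low expression of these integrants, so each expression level is represented by 1 clone. Each group had 3 libraries, and nothing in the labels says that they came from separate cultures, so the p-values measure only the spread between these libraries, which may be technical.

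PiggyBac elements move by cut and paste: their transposase cuts the element out and inserts it at the tetranucleotide TTAA, usually restoring the site it leaves. The PGBD genes hold remnants of such transposases that became fixed in the genome as host genes, and most no longer carry the transposon ends. PGBD1 and PGBD2 are older members found across mammals, and PGBD1 joins its transposase part to a SCAN domain of the kind found in zinc finger transcription factors. PGBD3 is spliced onto the first exons of ERCC6, the gene of the Cockayne syndrome B repair factor, giving a fusion protein. PGBD4 is the most recent arrival and is found in primates, and PGBD5 is the most ancient, is conserved across vertebrates and is mainly known from brain and from childhood solid tumours. The transposase used to insert the reporters is an insect enzyme, is not one of these genes and was not analysed here.

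Sequencing depth differed between groups, with 10809034 to 13902872 reads counted to genes in the parental libraries, 18654063 to 38093340 in clone 15 and 10334090 to 12352171 in clone 37. Clone 15 was read at 100 bp and the others at 75 bp, so a difference of clone 15 from the others and one of read length cannot be told apart. Parental replicate 2 stood apart from the other parental libraries: 14.0% of its reads mapped to several places and 19.2% to no annotated gene, respectively the highest and the lowest share of the 9 libraries. The clone 15 libraries also stood apart, with 4.6% to 6.0% of reads mapped to several places and 33.7% to 34.6% to no annotated gene. In the other libraries these shares were 10.4% to 14.0% and 19.2% to 29.9%. All 10 HEK293T markers checked, among them PAX2, KRT8, KRT18 and VIM, were at or above 1 CPM (a gene's reads scaled to a common total of reads counted to genes) in every library. Their levels differed between the lines: the neurofilament gene NEFM was at 475 to 633 CPM in parental cells, 2646 to 2810 in clone 15 and 135 to 139 in clone 37, and the list summed to 1488 to 1795, 4241 to 4396 and 967 to 1039 CPM. Of 12 markers of blood, endothelium, fibroblasts, liver, mature kidney and brain, 8 stayed under 1 CPM in every library, CD3E and UMOD were at 0, and the list summed to 6.19 to 8.14 CPM in parental cells, 2.76 to 6.11 in clone 15 and 8.01 to 11.5 in clone 37. The neuronal marker RBFOX3 made up much of it, at 3.37 to 4.44, 0.971 to 2.04 and 6.80 to 10.1 CPM. The part of these differences in the results below was not tested. In such bulk libraries, fewer cells that express a gene and less RNA per cell cannot be told apart.

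The sequence around PGBD3 is shown first because it decides what could be measured. RefSeq places PGBD3 on the minus strand of chromosome 10 from 49515105 to 49524281 (GRCh38.p14), starting within ERCC6 exon 5, which spans 49524033 to 49524777. In GENCODE 29, also on GRCh38, PGBD3 is no gene of its own: its coding exon is exon 6 of 2 of the 13 ERCC6 transcripts, from 49515201 to 49517121, and another ERCC6 transcript is a single exon of 1782 bases that lies wholly within it. The lines below give, from GENCODE 29 transcripts and in the direction of transcription, the last 40 bases of exon 5 followed by the first 40 bases of the next exon in capitals, with the intron left out. The first is the junction that joins ERCC6 to the PGBD3 exon (ERCC6-203, within chr10:49517082-49524072, minus strand), and the second the junction of the full-length repair factor (ERCC6-201, within chr10:49505973-49524072, minus strand).
ERCC6-203: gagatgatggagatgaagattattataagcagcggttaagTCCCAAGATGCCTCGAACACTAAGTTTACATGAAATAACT
ERCC6-201: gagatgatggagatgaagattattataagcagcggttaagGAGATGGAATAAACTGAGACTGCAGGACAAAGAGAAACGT
The bases before the capitals are shared, so reads from exons 1 to 5 do not tell the fusion from the repair factor, and reads across either junction do. The PGBD3 exon has 1921 bases, 11.5% of the 16737 exon bases of ERCC6, and counts per gene do not keep the exon from which a read came.

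**Figure D1:**
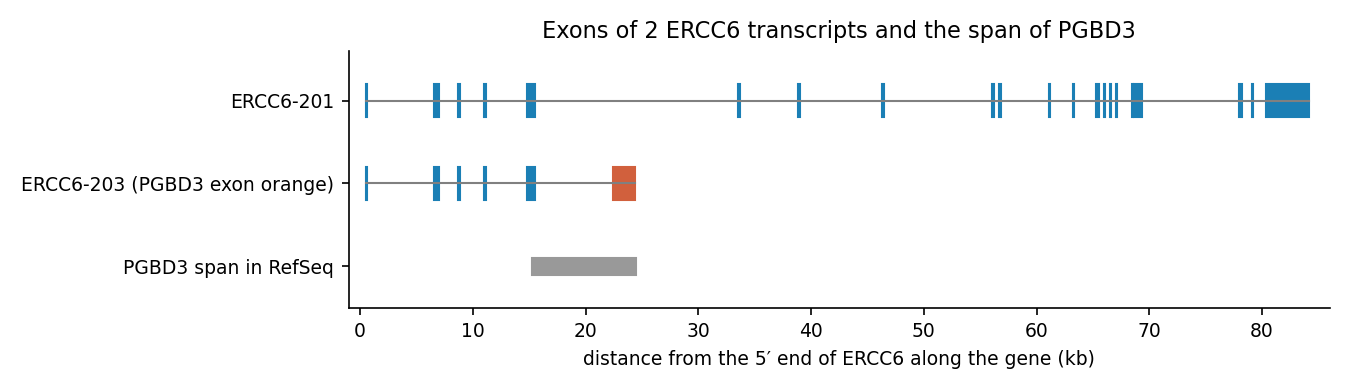
Map of ERCC6 with distance in kilobases from its start in the direction of transcription, showing the exons of ERCC6-201 and ERCC6-203 as boxes, the PGBD3 exon in orange and the span RefSeq gives to PGBD3 in grey. The PGBD3 exon follows exon 5 and in GENCODE 29 belongs to ERCC6.

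The start of PGBD4 is shown because it lies close to that of another gene. PGBD4 is a single exon of 6612 bases on chromosome 15, from 34102073 to 34108684 on the plus strand, and EMC7, a subunit of a membrane protein insertion complex, ends at 34101948 on the minus strand, which is where its transcription starts. The 124 bases between them, chr15:34101949-34102072 (GRCh38.p14, plus strand), read as follows, with TTAA in capitals.
PGBD4-EMC7 gap: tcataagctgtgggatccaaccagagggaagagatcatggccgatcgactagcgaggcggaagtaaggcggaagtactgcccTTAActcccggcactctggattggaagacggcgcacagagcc
Within 300-base windows that run from 250 bases before to 50 bases after a RefSeq start, TTAA, which reads the same on both strands, was found in 46.1% of 35116 windows. The PGBD4 window held 1 match, and those of PGBD1, PGBD3 and PGBD5 held 0. PGBD5 had the most GC-rich window of these, with 83.7% G or C, above 99.5% of all windows, and 46 CG pairs against a median of 14. The windows of PGBD1, PGBD4 and PGBD3 had 66.0%, 60.7% and 52.7% G or C, against a median of 58.7%. The PGBD3 window, 49524232 to 49524531, lies wholly within exon 5 of ERCC6, so its bases are exon sequence of that gene. PGBD2 was not among the windows.

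All 4 counted members were expressed at low to moderate levels in all 9 libraries. Per kilobase of exon, the scale on which genes can be compared, PGBD1 was the highest in every library, from 5.23 to 7.08 CPM per kb. PGBD5 followed with 1.27 to 1.75, then PGBD2 with 0.661 to 1.36 and PGBD4 with 0.696 to 1.30 CPM per kb. PGBD1 did not overlap the others, whereas the lowest PGBD5 values overlapped the highest of PGBD2 and PGBD4. PGBD2 (1.18 ± 0.215) was above PGBD4 (1.00 ± 0.285) in parental cells and below it in clone 15 (0.926 ± 0.232 against 1.06 ± 0.0431; CPM per kb, mean ± SD, n = 3), differences no larger than their spread. Dividing by the longest transcript raised PGBD2 in clone 15 to 1.17 CPM per kb, above PGBD4, so its place beside PGBD4 and PGBD5 depends on the length used. Of 14054 detected protein-coding genes, 49.9% were below PGBD1, 22.7% below PGBD5, 19.0% below PGBD4 and 18.4% below PGBD2 on this scale.

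Genes that could share reads with the members were checked. No stretch of 75 bases in the longest transcript of PGBD1, PGBD2, PGBD4 or PGBD5 occurred in a transcript of another gene in GENCODE 29; their other exons and the PGBD3 exon were not searched. The 7 PGBD4 pseudogenes with rows held 1 count in all. Reads on the opposite strand came to 0 against 2950 sense reads for PGBD1, 2 against 561 for PGBD2, 27 against 1070 for PGBD4 and 7 against 2691 for PGBD5.

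**Figure D2:**
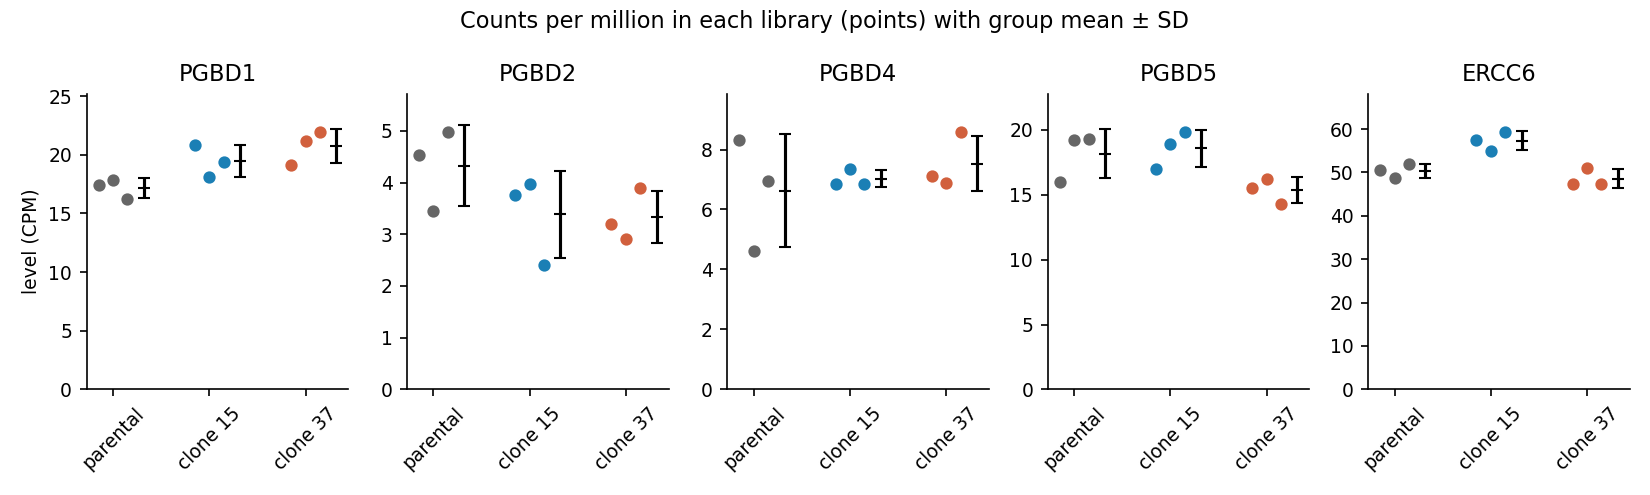
CPM of PGBD1, PGBD2, PGBD4, PGBD5 and ERCC6 in each of the 9 libraries, with points for libraries and bars for the group mean and SD. On this scale, without TMM scaling, PGBD1 is higher in every clone library than in every parental library. PGBD5 is lower in clone 37 than in clone 15, while PGBD2 and PGBD4 overlap throughout.

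Between the cell lines the members differed little. Clone 37 had more PGBD1 (1.19-fold) and less PGBD5 (0.826-fold) than parental cells, no member passed the test between clone 15 and parental cells, and PGBD5 was lower in clone 37 than in clone 15 (0.832-fold). Thus 2 of 4 members were called between clone 37 and parental cells, where 54.0% of 16501 tested genes were called in all, 26.7% higher and 27.3% lower (edgeR quasi-likelihood test, Benjamini-Hochberg adjusted p under 0.05). Between clone 15 and parental cells 0 of 4 were called, against 51.4% of 17703 genes, 25.1% higher and 26.2% lower. The smallest adjusted p of the members there was 0.179, and the count was likewise 0 at an unadjusted p under 0.05, against 56.8% of all tested genes, and with DESeq2, against 46.9%. Between the clones 1 of 4 was called, against 57.7% of 17712 genes. The members' shares lie near or below these backgrounds. The median absolute log2 difference over all tested genes was 0.32, 0.36 and 0.35 in these comparisons, more than that of PGBD1, PGBD4 or PGBD5 in any of them, whereas PGBD2 was above it in clone 37 and about at it in clone 15 against parental cells. With DESeq2 the members called fell to 0 of 4 in the other comparisons too, against 46.2% of tested genes for clone 37 and parental cells and 52.3% between the clones. Both comparisons with parental cells use the same 3 parental libraries.

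**Figure D3:**
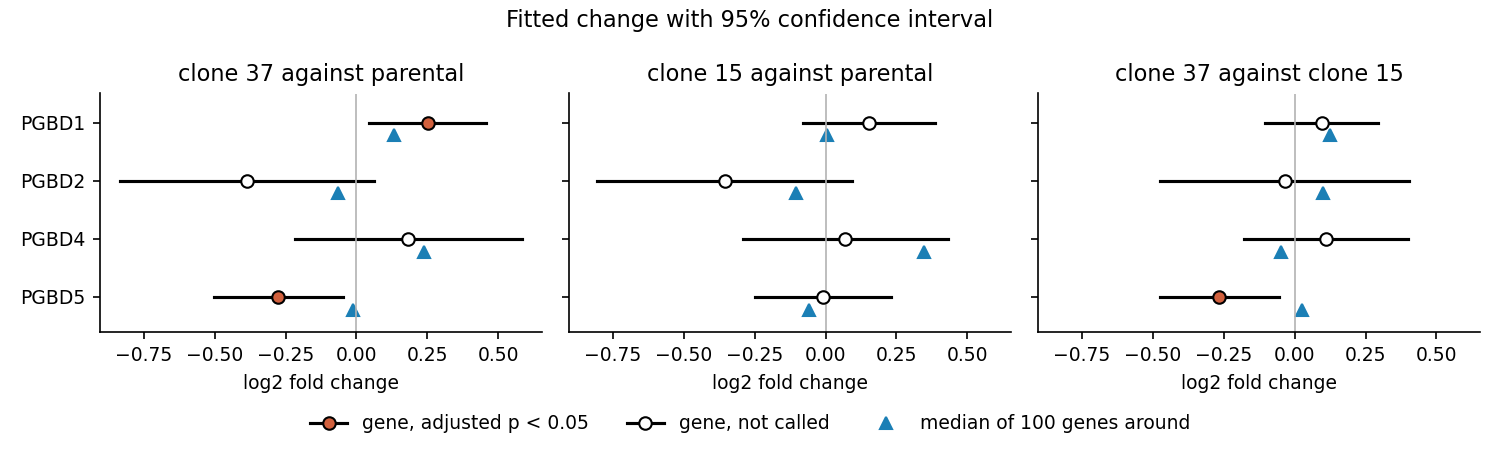
Fitted log2 differences of PGBD1, PGBD2, PGBD4 and PGBD5 in the 3 comparisons, with bars for 95% confidence intervals filled circles for called members and a triangle for the median of the 100 genes around each member. The interval lies above 0 for PGBD1 and below 0 for PGBD5 in clone 37 against parental cells, and all intervals of clone 15 against parental cells include 0.

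PGBD1 (ENSG00000137338) lies on chromosome 6 from 28281572 to 28302549, plus strand. Its level was 17.4, 17.8 and 16.2 CPM in parental replicates 1 to 3, 20.8, 18.1 and 19.4 in clone 15 and 19.2, 21.2 and 21.9 in clone 37. In CPM every library of both clones was above every parental library, although clone 15 replicate 2 cleared parental replicate 2 by little. This CPM leaves out the TMM scaling used in the fit. The TMM factors over all 9 libraries were 1.02 for clone 15 replicate 2 and 0.948 for parental replicate 2. Dividing by them would reverse the order of this pair. In the same unscaled CPM a gap above parental cells was found for 33.1% of tested genes in clone 37 and 31.5% in clone 15. A gap below them was found for 28.6% and 28.0%. The log2 difference was 0.25 (SE 0.10, adjusted p = 0.0384) for clone 37 and 0.15 (SE 0.11, adjusted p = 0.269, 95% interval -0.08 to 0.39) for clone 15 against parental cells, and 0.10 (SE 0.10, adjusted p = 0.413, interval -0.10 to 0.29) for clone 37 against clone 15. The call in clone 37 was marginal, being kept in 3 of 16 other settings. It was lost on leaving out parental replicate 1 (0.25), parental replicate 3 (0.17), clone 37 replicate 2 (0.25) or clone 37 replicate 3 (0.18), and with DESeq2 (0.24). Relative to the median of the 100 genes around it the difference was 0.12.

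PGBD1 sits within a cluster of SCAN and KRAB zinc finger genes, DNA-binding transcription factors, and shares the SCAN domain that some of them carry. Of those tested, ZNF391 and ZNF184 lie farthest away, at -906957 and -830829 bases from the start of PGBD1, and ZNF165 is next at -200597. Of the 13 tested members of that cluster other than PGBD1, which include the pseudogene ZKSCAN8P1, 10 (ZKSCAN8P1 among them) were higher in clone 37 than in clone 15 and 0 lower, with a median log2 difference of 0.54, where 28.7% of all tested genes were called higher. Against parental cells 5 were higher and 0 lower in clone 37 (median 0.20), and 1 was higher and 7 lower in clone 15 (median -0.28). Of these 7, ZSCAN31 (-0.53) lost its call in 10 of 16 other settings, DESeq2 among them. Its call between the clones (0.56) was lost in 5 of 16, and that of ZKSCAN4 in clone 37 against parental cells (0.30) in 6 of 16, DESeq2 again among them. Over all tested genes the medians were 0.02 in both comparisons with parental cells, and 38.5% and 61.5% of the cluster were called, against 54.0% and 51.4% of all tested genes. ZSCAN12 (0.46, SE 0.07, adjusted p = 3.07e-05) and ZNF165 (0.98, adjusted p = 6.67e-05) rose in clone 37, and ZNF391 (-0.85, adjusted p = 1.80e-07) and ZKSCAN8 (-0.50, adjusted p = 1.03e-05) fell in clone 15. Against these, PGBD1 itself stood at 0.15 in clone 15 and at 0.25 in clone 37. The nearest tested gene, ZSCAN26, ends 3347 bases before PGBD1 and differed between the clones by 0.0044 (adjusted p = 0.976), whereas ZKSCAN4, 29347 bases away, differed by 0.54 (adjusted p = 4.16e-05).

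**Figure D4:**
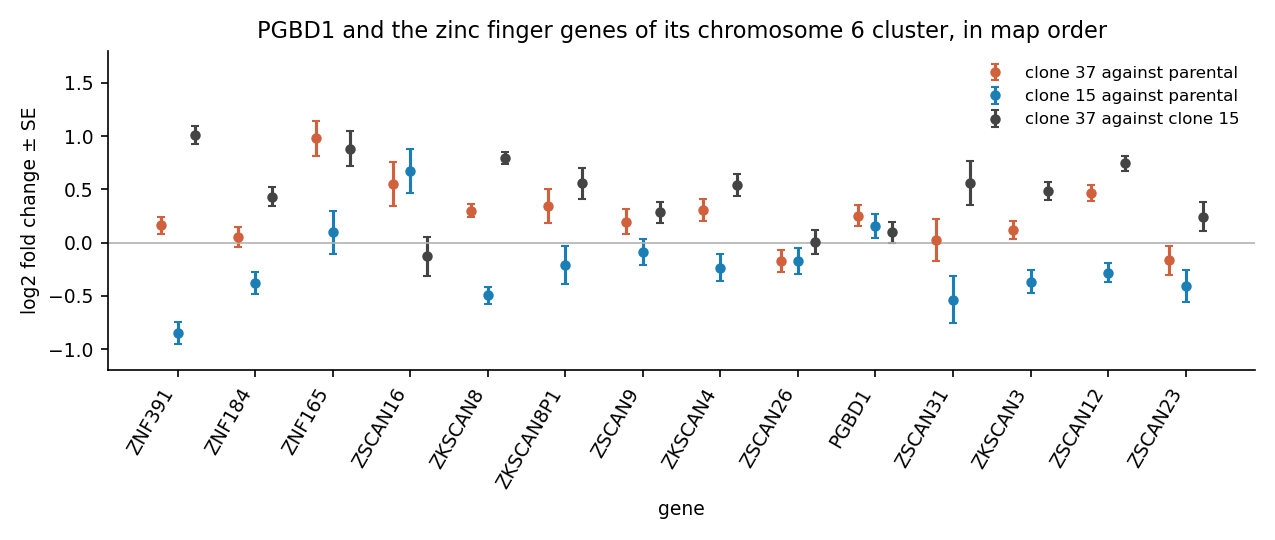
Log2 difference between clone 37 and clone 15 and of each clone against parental cells for PGBD1 and the 13 tested zinc finger genes of its cluster, placed in map order, with bars for the SE of the fit. Of these 13, the pseudogene ZKSCAN8P1 included, 10 were called higher in clone 37 than in clone 15, and PGBD1 lies at 0.10.

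PGBD1 protein has been reported to bind at NEAT1, the long RNA that scaffolds nuclear bodies called paraspeckles, so NEAT1 was set beside it. NEAT1 was at 2562, 724 and 2422 CPM in parental replicates 1 to 3, at 2096, 2000 and 1899 in clone 15 and at 1549, 2034 and 1653 in clone 37. Parental replicate 2 was the lowest of all 9 libraries, while PGBD1 in that library was at the level of the other parental libraries. The fitted log2 difference of -0.14 (SE 0.52, adjusted p = 0.844) in clone 37 against parental cells became -0.54 without that library (adjusted p = 0.0387), and the 0.06 (SE 0.51, adjusted p = 0.937) in clone 15 became -0.33 (adjusted p = 0.000146), so that NEAT1 was then called lower in both clones. Between the clones it stood at -0.19 (SE 0.09, adjusted p = 0.0754) and was called in 8 of 15 other settings, RLE scaling and DESeq2 (-0.19 in both) among them. Without clone 15 replicate 3 it was -0.24 and without clone 37 replicate 2 -0.30, both called, whereas without clone 37 replicate 1 it was -0.11 and relative to the 100 genes around it 0.0523, neither called. Of 14 paraspeckle genes tested, NEAT1 included, 4 were higher and 0 lower in clone 37 (median 0.04), and 4 were higher and 1 lower in clone 15 (median 0.02). The list's shares called, 28.6% and 35.7%, were below the 54.0% and 51.4% of all tested genes. RBM14, a paraspeckle protein, rose in clone 37 (0.45, SE 0.07, adjusted p = 3.43e-05) and, by 0.71 (adjusted p = 1.96e-07), in clone 15, and TARDBP rose in clone 37 (0.33, adjusted p = 0.000102), a call lost relative to the 100 genes around it (0.0125), and in clone 15 (0.31, adjusted p = 0.00207), where the median of those 100 genes was higher still (0.42). NUDT21, an RNA 3′ end processing factor, fell in clone 15 (-0.81, adjusted p = 1.69e-08). Relative to their surroundings RBM14 was at 0.26 in clone 37 and 0.33 in clone 15, and NUDT21 at -0.44 in clone 15, all still called.

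PGBD2 (ENSG00000185220) lies near the end of the long arm of chromosome 1, from 248906196 to 248919946 on the plus strand, and was the least abundant member by counts, with 30 to 143 reads a library. Its level was 4.53, 3.45 and 4.98 CPM in parental replicates 1 to 3, 3.75, 3.98 and 2.41 in clone 15 and 3.20, 2.90 and 3.89 in clone 37. The groups overlapped in each comparison, with parental replicate 2 below several clone libraries, and the highest library had 2.06 times the CPM of the lowest. The log2 difference against parental cells in clone 37 was -0.38 (SE 0.21, adjusted p = 0.137, 95% interval -0.83 to 0.06), and that of clone 15 was -0.36 (SE 0.22, adjusted p = 0.179, interval -0.80 to 0.09). Clone 37 and clone 15 differed by -0.03 (SE 0.21, adjusted p = 0.905, interval -0.47 to 0.40). With all libraries thinned to the smallest total, clone 15 against parental cells was at -0.20 and clone 37 against clone 15 at -0.25, neither called. These intervals are wide, and without parental replicate 2 the difference in clone 37 was -0.53 and was called (adjusted p = 0.0223). Both nearest tested genes lie on the same side: ZNF672 was lower by -0.57 in clone 37 (adjusted p = 0.000128) and by -0.44 in clone 15 (adjusted p = 0.00446), and ZNF692 was at -0.16 in both and not called.

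PGBD3 could be followed only through the ERCC6 row (ENSG00000225830, chromosome 10, 49455368 to 49539538, minus strand), which sums the repair factor and, where the counting used an annotation like the one above, the fusion and the single-exon transcript within the PGBD3 exon. ERCC6 was at 50.5, 48.6 and 51.9 CPM in parental replicates 1 to 3, at 57.6, 55.0 and 59.3 in clone 15 and at 47.3, 51.0 and 47.4 in clone 37. The clone 15 libraries were above all others, and clone 37 overlapped parental cells. Clone 15 lay wholly above parental cells for 31.5% of tested genes, and clone 37 wholly below clone 15 for 32.1%. The row was lower in clone 37 than in clone 15, by -0.23 on the log2 scale (SE 0.07, adjusted p = 0.00433), and kept that call in all 16 other settings. Against parental cells clone 15 stood at 0.16 (SE 0.08, adjusted p = 0.120), which was called without clone 15 replicate 2 (0.21) and with protein-coding genes only (0.20), and which was 0.0746 and not called relative to the 100 genes around it. Clone 37 stood at -0.08 against them (SE 0.07, adjusted p = 0.341), and at -0.22 and called relative to the 100 genes around it (adjusted p = 0.0136). Which of these forms changed cannot be told from these counts. Of the 4 nearest tested neighbours, ARHGAP22 (0.60) and PARG (0.31) were called higher and OGDHL (-0.60) lower in clone 37 than in parental cells. In clone 15 ARHGAP22 was higher (0.46, a call lost in 2 of 16 other settings) and VSTM4 lower (-0.62). Between the clones VSTM4 (0.60) and PARG (0.22) were higher and OGDHL (-0.67) lower in clone 37. The other differences of these neighbours were not called.

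The ERCC6 product acts in transcription-coupled repair, which removes lesions that stall RNA polymerase II. Of 14 genes of that process tested, ERCC6 among them, 4 were higher and 4 lower in clone 37 than in parental cells (median -0.02), and 3 were higher and 4 lower in clone 15 (median -0.03). That is 8 of 14 and 7 of 14 called, near the 54.0% and 51.4% of all tested genes. Between the clones 4 were higher and 6 lower in clone 37 (71.4% called against 57.7% of all tested genes, median -0.18). POLR2A, the largest subunit of the polymerase, rose by 0.48 (SE 0.06, adjusted p = 3.43e-06) in clone 37 and by 0.95 (adjusted p = 2.44e-09) in clone 15. ERCC1, partner of a repair nuclease, fell in clone 37 (-1.05, SE 0.09, adjusted p = 4.50e-08), and TCEA1, an elongation factor that restarts stalled polymerase, fell in clone 15 (-0.94, adjusted p = 2.54e-09). Relative to the 100 genes around each, POLR2A was at 0.20 in clone 37 and 0.61 in clone 15, and TCEA1 at -0.50 in clone 15, all still called.

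PGBD4 (ENSG00000182405) was at 8.33, 4.60 and 6.97 CPM in parental replicates 1 to 3, at 6.85, 7.35 and 6.86 in clone 15 and at 7.12, 6.87 and 8.58 in clone 37. The parental libraries overlapped both clones, with replicate 2 the lowest of all 9 and replicate 1 exceeded by clone 37 replicate 3 alone. The log2 difference was 0.18 (SE 0.19, adjusted p = 0.439, 95% interval -0.22 to 0.58) for clone 37 and 0.07 (SE 0.18, adjusted p = 0.761, interval -0.29 to 0.43) for clone 15 against parental cells. Between the clones it was 0.11 (SE 0.14, adjusted p = 0.521, interval -0.18 to 0.40). The sign of each turned in some setting: without parental replicate 2 the first became -0.030 and the second -0.13, relative to the 100 genes around they became -0.057 and -0.28, and the difference between the clones became -0.0123 without clone 37 replicate 3.

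EMC7, across the short gap shown above, was at 27.0, 29.8 and 23.2 CPM in parental replicates 1 to 3, at 32.4, 29.1 and 31.7 in clone 15 and at 31.0, 36.1 and 32.9 in clone 37. It was higher in clone 37 than in parental cells (0.29, SE 0.10, adjusted p = 0.0170), a call lost without parental replicate 3 (0.15), clone 37 replicate 2 (0.24) or clone 37 replicate 3 (0.27), with DESeq2 (0.28), with unstranded counts (0.25) and relative to the 100 genes around it (0.0588). In clone 15 EMC7 stood at 0.19 (SE 0.11, adjusted p = 0.147) against parental cells, at 0.31 and called without parental replicate 2, and at -0.16 and not called relative to the 100 genes around it. In parental replicate 2, where PGBD4 was lowest, EMC7 was the highest of the parental libraries. EMC4, another subunit of the same complex and also a neighbour of PGBD4, rose in clone 37 (0.33, adjusted p = 0.00174) and clone 15 (0.58, adjusted p = 5.15e-06). Relative to the 100 genes around it EMC4 was at 0.0956 in clone 37, no longer called, and at 0.24 in clone 15. KATNBL1, nearer to PGBD4 on that side, fell in clone 15 (-0.35, adjusted p = 0.00604, and -0.69 relative to its surroundings) and was at -0.093 and not called in clone 37. AVEN was at 0.14 and not called in clone 37 and higher in clone 15 (0.37, adjusted p = 0.0340), a call lost in 8 of 16 other settings: with DESeq2 (0.37), no filter (0.37), unstranded counts (0.31) and thinning (0.32), relative to its surroundings (0.030), and without parental replicate 1 (0.36), parental replicate 3 (0.27) or clone 15 replicate 3 (0.30).

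PGBD5 (ENSG00000177614) lies on chromosome 1 from 230314482 to 230426371, minus strand. Its level was 16.0, 19.2 and 19.3 CPM in parental replicates 1 to 3, 17.0, 18.9 and 19.8 in clone 15 and 15.5, 16.3 and 14.3 in clone 37. Every clone 37 library was below every clone 15 library, as for 32.1% of tested genes, and clone 37 overlapped parental cells only through parental replicate 1. Clone 37 was lower than parental cells by -0.28 (SE 0.11, adjusted p = 0.0384) and lower than clone 15 by -0.27 (SE 0.10, adjusted p = 0.0275), while clone 15 differed from parental cells by -0.01 (SE 0.12, adjusted p = 0.961, 95% interval -0.25 to 0.23). The call against parental cells was kept in 7 of 16 other settings and was lost with DESeq2 (-0.28) and without parental replicate 3 (-0.28) or clone 37 replicate 1 (-0.28), 2 (-0.31) or 3 (-0.25). The call against clone 15 was kept in 11 of 16 and was lost with DESeq2 (-0.27) and without clone 15 replicate 3 (-0.23) or clone 37 replicate 1 (-0.27) or 3 (-0.23). GALNT2, an enzyme of O-linked glycosylation and the nearest tested gene at 32357 bases, was also lower in clone 37 than in parental cells (-0.36, adjusted p = 8.63e-05) and clone 15 (-0.31, adjusted p = 1.41e-05). Of the other neighbours, URB2 was higher in clone 37 (0.70, adjusted p = 3.45e-08) and in clone 15 (0.61) than in parental cells. COG2 (-0.10) and C1orf198 (-0.14) were not called in clone 37 against parental cells, and C1orf198 was lower in clone 15 (-0.28, adjusted p = 0.00629). Between the clones COG2 was lower in clone 37 (-0.15, adjusted p = 0.0384), a call lost in 7 of 16 other settings. URB2 (0.097) and C1orf198 (0.14) were not called there. The gene annotated next to the start of PGBD5, AL133516.1, had 0 counts in all 9 libraries.

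Transposases cut DNA, and cells seal such breaks largely by end joining, so genes of end joining and break signalling were counted beside the members. Of 16 tested, 3 were higher and 4 lower in clone 37 (median 0.03) and 5 were higher and 3 lower in clone 15 (median 0.08) than in parental cells. That is 7 of 16 and 8 of 16 called, against 54.0% and 51.4% of all tested genes. XRCC5, the large Ku subunit, fell in clone 37 (-0.70, SE 0.07, adjusted p = 1.47e-07), as did XRCC1, a single-strand break scaffold (-0.67, adjusted p = 3.98e-06), and XRCC5 also fell in clone 15 (-0.35, adjusted p = 0.00189), where the median of the 100 genes around it was lower still (-0.47). PRKDC, the kinase that Ku recruits, fell in clone 15 (-0.69, SE 0.10, adjusted p = 2.83e-06), and TP53BP1, a break signalling protein, rose there (0.43, adjusted p = 7.15e-05). Relative to the 100 genes around each, the differences were -0.22 for XRCC5 and -0.44 for XRCC1 in clone 37 and -0.35 for PRKDC and 0.28 for TP53BP1 in clone 15, all still called.

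Human genes derived from other DNA transposons (hAT, mariner, pogo, Harbinger and other families) gave a comparison with the piggyBac-derived genes. Of 34 tested, 9 were higher and 7 lower in clone 37 than in parental cells (47.1% called, median 0.13), and 2 were higher and 13 lower in clone 15 (44.1% called, median -0.17). Between the clones 15 were higher and 5 lower in clone 37 (58.8% called, median 0.19). All tested genes gave 54.0%, 51.4% and 57.7% called, the 51.4% made up of 25.1% higher and 26.2% lower. KCTD1, a BTB domain protein, fell in clone 37 (-0.84, SE 0.09, adjusted p = 4.70e-07), though relative to the 100 genes around it the difference was -0.088. ZBED3 also fell in clone 37 (-0.70, adjusted p = 8.26e-07). In clone 15 CENPB, the centromere protein derived from a pogo transposase, rose (0.54, adjusted p = 1.59e-05) and FAM200C fell (-0.69, adjusted p = 3.52e-05). CENPB rose in clone 37 as well (0.51, adjusted p = 1.62e-06), and its call in clone 15 was lost relative to its surroundings (0.15).

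The genes most like each member over the 9 libraries were found by the root mean square difference of log2 CPM profiles, each centred on its own mean, among 13020 protein-coding genes, as a description. For PGBD1 they were ECD (0.053) and REST (0.054), against a median of 0.27 over all these genes. PGBD5 was closest to YKT6 (0.052) and BCAR3 (0.061), against a median of 0.29. PGBD4 was closest to RALGDS (0.081) and POLM (0.10), and PGBD2, the least counted, to NHLRC3 (0.14) and SEMA3F (0.15), against medians of 0.33 and 0.38. The closest profiles of PGBD5 shared its lower level in clone 37: YKT6 averaged 72.1, 73.6 and 61.5 CPM in parental cells, clone 15 and clone 37.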

How the data were processed

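Total RNA was depleted of ribosomal RNA and made into directional libraries, per the labels' protocols. Per the submitters' processing notes, FastQC 0.11.9, STAR 2.7.10a and hg38 were used; the annotation release, trimming and filters are not given in the sources used here. In the deposited tables the values are raw counts for each gene, not normalized. Column 4 was used, which held 92.6% to 94.0% of the stranded counts of each library. Such counts leave out reads that map to several places. Symbols came from a name table and GENCODE 29 (58496 of 60683 identifiers), and sequences from RefSeq and GRCh38.

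Each comparison was fitted on its 6 libraries with edgeR 4.0.16 (TMM scaling, filterByExpr, quasi-likelihood test, R 4.3.3), with p-values adjusted over all tested genes and called under 0.05. The fitting code was tested on simulated data. CPM was computed over all gene counts. Alternatives were RLE scaling, DESeq2 1.42.0, other filters, unstranded counts, all 9 libraries together, thinning to 10334090 counts, a replicate block, protein-coding genes only, differences relative to the 100 nearest tested genes, and leaving out each library. The genes named were drawn from the members, their nearest neighbours, the closest profiles, ERCC6 and NEAT1. From each list, the 2 called genes with the smallest adjusted p in each comparison with parental cells were also named. Members and lists were chosen with earlier results of these data known. No replicate pair was identical. Counts of 30 to 48 for PGBD2 in clone 37 limit its precision.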

Additional observations from a re-analysis of the deposited data

Results flagged for a closer look

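The clones differed from each other, by the direct test between them, at PGBD5 and at the ERCC6 row, the gene to which GENCODE 29 assigns the PGBD3 exon. PGBD5 was lower in clone 37 than in clone 15 by -0.27 on the log2 scale (edgeR adjusted p = 0.0275, 9 of 9 library pairs), a call lost in 5 of 16 other settings, DESeq2 included. ERCC6 was lower by -0.23 (adjusted p = 0.00433, 9 of 9 library pairs). Of all tested genes 57.7% were called between the clones, and 32.1% had every clone 37 library below every clone 15 library. Read length also differed between these clones, and its part in either difference was not tested.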

How the results depend on the processing

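Counts of called genes stayed within 1.5 times under every setting run. Against parental cells in clone 37, PGBD1 lost its call with RLE scaling (0.24), DESeq2 (0.24), no filter (0.24), a 1 CPM filter (0.23), unstranded counts (0.21), all 9 libraries (0.25), thinning (0.24) and relative to the 100 genes around (0.12). PGBD5 lost its call there with DESeq2 (-0.28), no filter (-0.28), thinning (-0.24) and relative to the 100 genes around (-0.26), and against clone 15 with DESeq2 (-0.27) and unstranded counts (-0.23). Replicate numbers did not pair the libraries (correlations -0.251 to 0.089); with the replicate block PGBD1 (0.25) and PGBD5 (-0.27) in clone 37 were no longer called, PGBD5 in clone 15 was at 0.00382 and NEAT1 in clone 37 at 0.018. Other changes of sign, all in differences not called, were PGBD5 in clone 15 with a 1 CPM filter (0.00185), thinning (0.0774), protein-coding genes only (0.0361) and relative to surroundings (0.0499), PGBD2 between the clones with unstranded counts (0.0080), and, relative to surroundings, PGBD4 in clone 37 (-0.057) and clone 15 (-0.28), PGBD1 between the clones (-0.029), EMC7 (-0.16) and NEAT1 (-0.34) in clone 15 and NEAT1 between the clones (0.052). The cause was not tested. Leaving out each library in turn, clone 37 against parental cells ranged from 0.17 to 0.30 for PGBD1, -0.55 to -0.29 for PGBD2, -0.030 to 0.36 for PGBD4, -0.36 to -0.24 for PGBD5 and -0.54 to 0.13 for NEAT1. Clone 15 ranged from 0.08 to 0.23, -0.48 to -0.17, -0.13 to 0.23, -0.11 to 0.0738 and -0.33 to 0.31, and clone 37 against clone 15 from 0.02 to 0.16, -0.21 to 0.0674, -0.0123 to 0.18, -0.34 to -0.23 and -0.30 to -0.11 for the same genes.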
